A study of Homo sapiens with 2 samples.

Results

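The extracellular matrix is the protein scaffold around cells, and 46 of its structural genes were examined in PC3CR cells and in PC3 cells. They were 24 collagen chains, 8 genes of elastic fibres, 9 matricellular and adhesive glycoproteins and 5 enzymes that modify or crosslink collagen. A gene entered when at least 1 probe set of the array was paired with its symbol and with no other, and the brightest probe set on average stood for it. By this rule 45 of the 46 genes were measured, of 19775 genes in all, and COL17A1 was not analysed here. PC3CR is a subline of PC3 that acquired resistance to cabazitaxel (CBZ), a taxane that stabilises microtubules. It was kept in CBZ for 18 months and examined after 3 months without the drug. PC3 is the parental prostate cancer cell line, which lacks this exposure, and both lines grew in the same serum-containing medium. Total RNA of each line was read on 1 array, so PC3CR stands for 1 subline and no difference has a replicate check or a test.

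Values are log2 units of the robust multichip average (RMA), as deposited, and a difference is PC3CR minus PC3, so that 1 is 2-fold. The arrays had medians over probe sets of 4.81 in PC3CR and 4.81 in PC3, and medians over genes of 6.05 in PC3CR and 5.93 in PC3. The lower quartiles over genes were 4.10 in PC3CR and 4.22 in PC3, and values under them lie near the floor of the array, where a difference has no reliable size. The files hold no detection call. An array value depends on the probes of its gene, so levels were compared between the cell lines and never between genes. The epithelial keratin KRT18 was at 12.36 in PC3CR and 11.69 in PC3, and KRT8 at 9.79 in PC3CR and 9.72 in PC3. The other epithelial markers EPCAM, KRT19 and CDH1 differed by -2.49, -3.28 and -0.67. Of 8 markers of fibroblasts and mural cells, 7 lay below the median of genes on both arrays and none was past 2-fold, with values between 3.14 and 5.74 in PC3CR and between 2.24 and 6.09 in PC3. The same held for 3 of 4 endothelial markers and for the 3 measured leukocyte markers. The epithelial markers went both ways, and the part of their differences in the matrix differences was not tested.

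Collagens are trimers whose chains wind into a triple helix. Fibrillar collagens pack into the tension-bearing fibres of connective tissue, type IV collagens form the sheet of the basement membrane under epithelia, and other collagens link, anchor or decorate these structures. Elastic fibres consist of elastin on microfibrils of fibrillin, organised by fibulins. Matricellular proteins such as thrombospondin and SPARC signal to cells more than they bear load. Hydroxylases and lysyl oxidases make the helix stable and crosslink it.

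The structural matrix genes divided between the lines, with many members past 2-fold in each direction. Of 45 members, 14 were at least 2-fold higher in PC3CR, which is 31.1% of members and 9.84% of all genes. A further 9 were at least 2-fold lower, against 6.72% of all genes, and 22 differed by less. High and low members balanced, with a median of -0.01 over members and -0.04 over all genes. The median size of the difference, regardless of sign, was 1.02 over members and 0.34 over all genes. At 4-fold 6 members were higher and 8 were lower, against 1.76% and 2.0% of all genes. At 1.5-fold the counts were 16 and 15, against 18.0% and 13.5% of all genes. Of the 17 members below the median of genes on both arrays, 4 were past 2-fold, LOX, FBN1, SPARC and COL8A1. Among the 28 members at or above the median of genes on at least 1 array, 12 were higher by at least 2-fold and 7 lower, against 15.5% and 10.8% of the genes that met the same floor. Members were put together with results of these arrays known, so these shares describe the list and are no test of it.

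**Figure D1:**
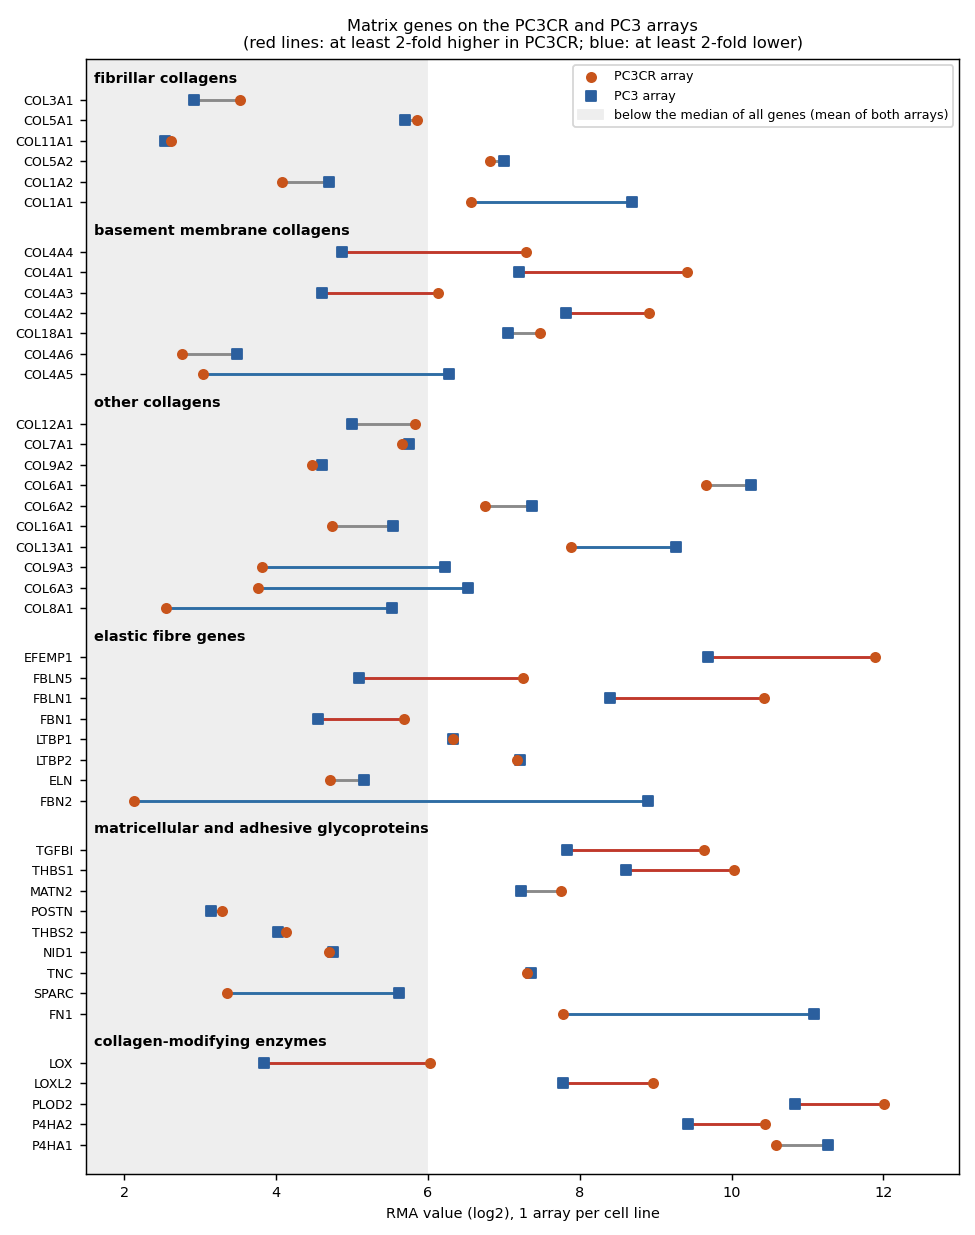
RMA values (log2, horizontal axis) of the 45 measured matrix genes on the PC3CR array (orange circles) and the PC3 array (blue squares), 1 array per cell line, grouped by role and ordered by difference. Red lines join genes at least 2-fold higher in PC3CR, blue lines genes at least 2-fold lower and grey lines genes within 2-fold; the shaded area lies below the median of all genes. The longest line is that of FBN2, with 2.13 in PC3CR and 8.90 in PC3.

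The role groups differed in their medians. Of all genes 9.84% were at least 2-fold higher and 6.72% lower, and with 5 to 10 genes per group the counts only describe the groups. The collagen-modifying enzymes had a median of 1.17, with 4 of 5 at least 2-fold higher and 0 lower. The basement membrane collagens had a median of 1.08, with 4 of 7 higher and 1 lower. The elastic fibre genes followed at 0.56, with 4 of 8 higher and 1 lower, and the glycoproteins at 0.11, with 2 of 9 higher and 2 lower. Fibrillar collagens had a median of -0.06, with 0 of 6 higher and 1 lower. The other collagens had the lowest median, -0.71, with 0 of 10 higher and 4 lower. Taken over all 23 measured collagens, 4 were past 2-fold upward and 6 downward, while 10 of the 22 other members were higher and 3 lower. These medians depended on the probe set and on brightness. When probe sets without _s_ or _x_ in their identifier were preferred, the median was 0.052 for elastic fibre genes, -0.06 for glycoproteins and -1.09 for other collagens. Over members at or above the median of genes on at least 1 array it was 1.01 for elastic fibre genes and 0.52 for glycoproteins. For the 2 fibrillar collagens that met this floor it was -1.15, and for other collagens -1.38. The order of the groups is therefore not firm, and differences between them were not tested.

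**Figure D2:**
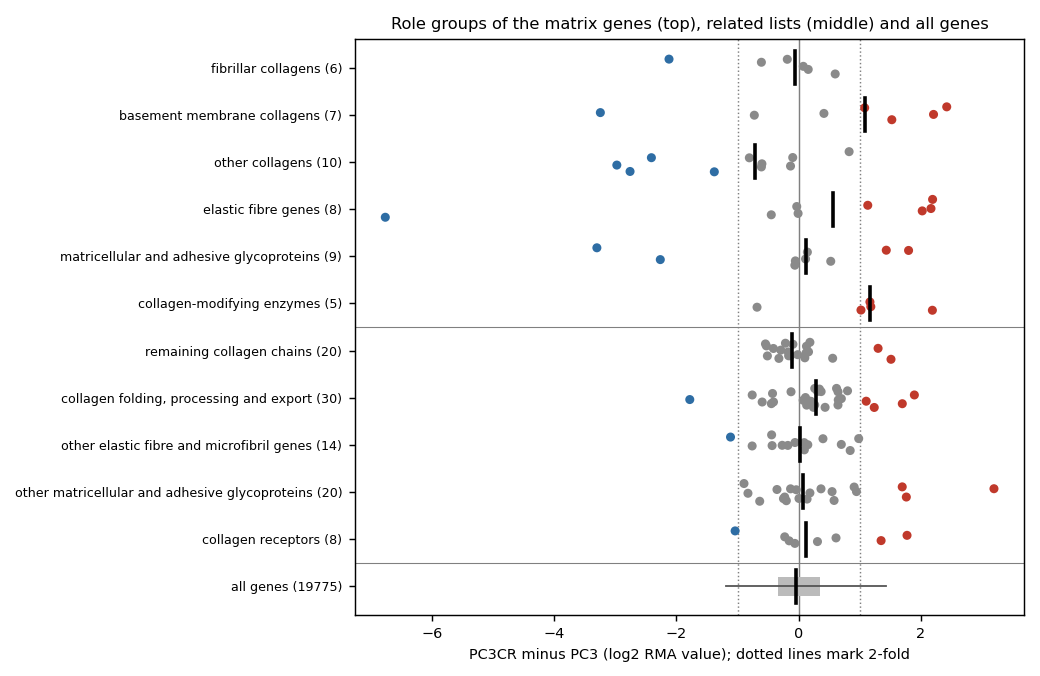
PC3CR minus PC3 (log2 units, horizontal axis), 1 point per gene, for the 6 role groups (top), 5 related gene lists (middle) and all genes (bottom); brackets give how many genes were measured. Black bars are medians, red and blue points lie past 2-fold above and below 0, and for all genes the grey box spans the quartiles and the line the central 90%. Medians of the role groups run between -0.71 for the other collagens and 1.17 for the modifying enzymes.

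Of 7 basement membrane collagens 4 were at least 2-fold higher in PC3CR, all of them type IV chains, and 1 was lower. The 6 type IV genes lie head to head in 3 pairs, with the 2 genes of a pair read in opposite directions and starting close together. COL4A1 and COL4A2, the chains of the type IV trimer found in nearly every basement membrane, were both higher. COL4A1 was at 9.41 in PC3CR and 7.20 in PC3, a difference of 2.21 or 4.62-fold. Its second probe set differed by 1.35. COL4A2 was at 8.91 in PC3CR and 7.83 in PC3, a difference of 1.08 or 2.11-fold. Its second probe set differed by 0.40, and after loess centring the difference was 0.98, just within 2-fold. The direction was thus shared by all 4 probe sets of the pair, while COL4A2 stood at the edge of the 2-fold rule.

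COL4A3 and COL4A4, chains of the specialised trimer of kidney, lung and eye, were higher too. COL4A4 was at 7.29 in PC3CR and 4.87 in PC3, a difference of 2.42 or 5.36-fold, the highest of any member. A second COL4A4 probe set differed by 1.71, and the last, at 3.37 in PC3CR and 3.57 in PC3, lay near the floor. COL4A3 was at 6.13 in PC3CR and 4.60 in PC3, a difference of 1.52 or 2.88-fold. The other 6 of its 7 probe sets lay between -0.23 and 0.30 and were dim on both arrays, so the COL4A3 difference rests on 1 probe set.

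In the third pair only COL4A5 passed 2-fold, and it was lower. COL4A5, the chain that completes the trimer of COL4A3 and COL4A4, was at 3.04 in PC3CR and 6.28 in PC3, a difference of -3.25 or 9.49-fold lower. Its second probe set, dim on both arrays, differed by -0.29. COL4A6 was at 2.77 in PC3CR and 3.49 in PC3, below the lower quartile on both arrays, and its other probe sets differed by 0.21 and 0.09. COL4A3 and COL4A4 therefore had higher values in PC3CR while the value of the chain they assemble with was near the floor there. COL18A1, a basement membrane collagen whose end fragment is endostatin, was at 7.47 in PC3CR and 7.06 in PC3, a difference of 0.41, and its second probe set differed by 1.04.

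The start regions of the type IV genes are shown because paired genes start close together. RefSeq windows on GRCh38.p14 run over 300 bases, with 250 before and 50 after each start, and 34 of the 45 measured members had at least 1 window. The COL4A1 and COL4A2 starts lie 127 bases apart, those of COL4A3 and COL4A4 419 bases apart, and the nearest starts of COL4A5 and COL4A6 380 bases apart. The COL4A2 window, chr13:110307034-110307333 on the plus strand, holds both starts of its pair, that of COL4A2 at base 251 and that of COL4A1, read on the minus strand, at base 124. The COL4A4 window is chr2:227164156-227164455 on the minus strand, the COL4A3 window chr2:227164374-227164673 on the plus strand, and these overlap by 82 bases. The COL4A5 window is chrX:108439588-108439887 on the plus strand. Capitals mark CCAAT boxes (CCAAT or its reverse complement ATTGG) and GC boxes (GGGCGG or its reverse complement CCGCCC).
COL4A2: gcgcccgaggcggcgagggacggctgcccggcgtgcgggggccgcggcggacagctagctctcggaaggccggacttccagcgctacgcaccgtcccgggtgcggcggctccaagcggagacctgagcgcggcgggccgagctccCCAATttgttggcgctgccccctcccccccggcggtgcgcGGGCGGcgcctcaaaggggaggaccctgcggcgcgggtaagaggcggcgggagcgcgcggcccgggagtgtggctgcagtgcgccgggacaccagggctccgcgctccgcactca
COL4A4: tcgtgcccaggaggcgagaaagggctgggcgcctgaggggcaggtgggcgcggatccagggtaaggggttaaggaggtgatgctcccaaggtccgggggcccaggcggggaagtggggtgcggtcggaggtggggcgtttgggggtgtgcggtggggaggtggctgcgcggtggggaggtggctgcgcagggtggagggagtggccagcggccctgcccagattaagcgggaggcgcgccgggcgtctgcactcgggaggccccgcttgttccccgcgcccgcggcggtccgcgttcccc
COL4A3: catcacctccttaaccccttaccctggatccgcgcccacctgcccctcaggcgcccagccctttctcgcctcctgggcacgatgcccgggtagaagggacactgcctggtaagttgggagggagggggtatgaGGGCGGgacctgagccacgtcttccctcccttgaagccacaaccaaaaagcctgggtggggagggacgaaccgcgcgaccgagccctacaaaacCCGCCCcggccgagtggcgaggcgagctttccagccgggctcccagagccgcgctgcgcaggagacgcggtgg
COL4A5: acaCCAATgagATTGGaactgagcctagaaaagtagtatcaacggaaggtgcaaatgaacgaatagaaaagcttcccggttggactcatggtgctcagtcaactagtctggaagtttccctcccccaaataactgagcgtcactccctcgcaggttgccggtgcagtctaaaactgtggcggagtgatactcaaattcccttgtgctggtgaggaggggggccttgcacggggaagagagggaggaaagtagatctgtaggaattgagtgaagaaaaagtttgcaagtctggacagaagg

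The start regions differed in these letters and in base composition. The COL4A2 window holds 1 CCAAT box and 1 GC box and has a GC content of 77.7%. The COL4A1 window, which overlaps it by 226 bases, holds 1 CCAAT box and 2 GC boxes at a GC content of 76.7%. The COL4A3 window holds 2 GC boxes and no CCAAT box at a GC content of 67.7%, and the COL4A4 window holds neither at 74.0%. The COL4A5 window holds 2 CCAAT boxes and no GC box, with a GC content of 49.3%, against a median of 58.7% over all windows. Of 35116 windows of the same length, 34.6% hold a CCAAT box and 45.0% a GC box on either strand. Among the 42 member windows 35.7% hold a CCAAT box and 61.9% a GC box. These shares are per window, and the following counts are per gene, over any of its windows. A GC box was present for 9 of the 12 members at least 2-fold higher that had a window. It was present for 2 of the 6 members at least 2-fold lower and for 12 of the 16 within 2-fold. Its share was thus the same among higher members and members within 2-fold, and smaller among the few lower members, which was not tested. A match says only that the letters are there.

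**Figure D3:**
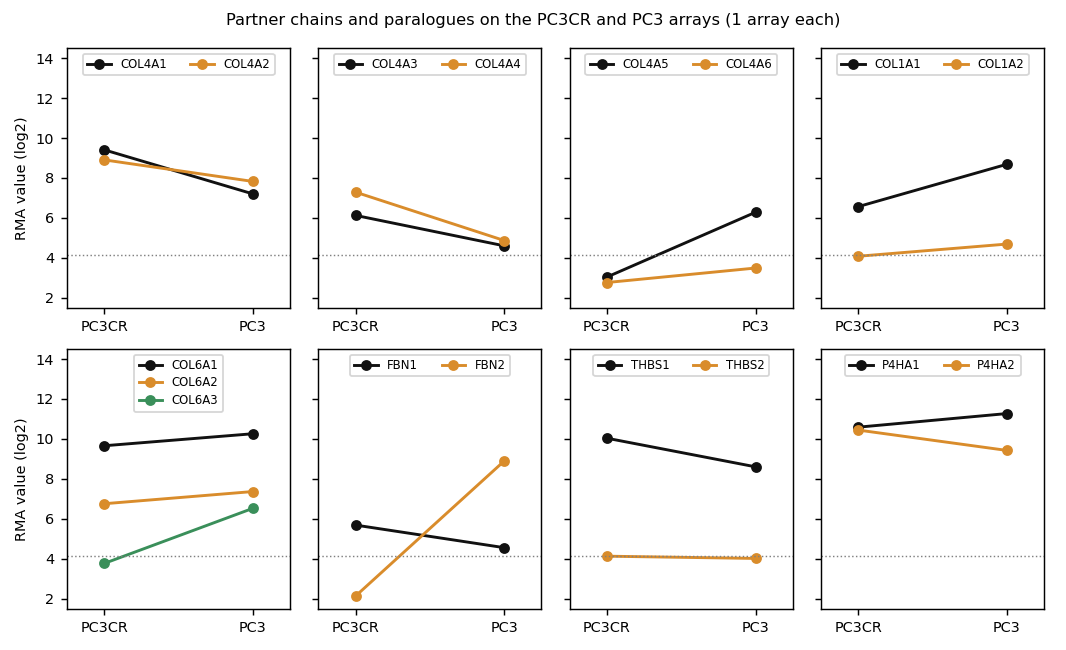
RMA values (log2, vertical axis) of chains that assemble together, genes that lie head to head and close paralogues on the PC3CR array (left) and the PC3 array (right), 1 line per gene, 1 array per cell line. Dotted lines mark the lower quartile of genes (mean of both arrays), and only slopes can be compared between lines. COL4A1 with COL4A2 and COL4A3 with COL4A4 slope the same way, COL4A5 the other way, and FBN1 and FBN2 slope in opposite directions.

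Fibrillar collagens stood apart only through COL1A1, and 4 of the 6 lay below the median of genes on both arrays. COL1A1, the main chain of type I collagen, was at 6.56 in PC3CR and 8.69 in PC3, a difference of -2.12 or 4.35-fold lower. A second bright probe set of COL1A1 was at 7.44 in PC3CR and 7.41 in PC3, so its bright probe sets disagreed. Another, dimmer one, at 4.42 in PC3CR and 5.54 in PC3, differed by -1.13. COL1A2, the other chain of type I collagen, was at 4.08 in PC3CR and 4.69 in PC3. COL3A1, which accompanies type I collagen in soft tissue, was at 3.52 in PC3CR and 2.92 in PC3, below the lower quartile on both arrays. COL11A1 was dimmer still, at 2.62 in PC3CR and 2.54 in PC3. The type V chains that nucleate fibrils were close to equal. COL5A1 was at 5.85 in PC3CR and 5.70 in PC3, and COL5A2 at 6.82 in PC3CR and 7.01 in PC3.

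Of the 10 other collagens 4 were at least 2-fold lower in PC3CR, and 5 lay below the median of genes on both arrays. Differences were below 0 for 9 of the 10, and for 10366 of all 19775 genes. COL8A1, a short-chain collagen of vessel walls and the cornea, was at 2.55 in PC3CR and 5.53 in PC3, a difference of -2.98 or 7.87-fold lower. The other COL8A1 probe sets, dim on both arrays, differed by -0.44 and -0.31, so its difference rests on 1 probe set. COL6A3 was at 3.77 in PC3CR and 6.53 in PC3, a difference of -2.76 or 6.77-fold lower. COL9A3, a fibril-associated collagen of cartilage, was at 3.82 in PC3CR and 6.23 in PC3, a difference of -2.41 or 5.32-fold lower. All 3 were below the lower quartile in PC3CR, so these folds are approximate, and COL6A3 and COL9A3 each had 1 probe set. Near COL8A1, 3 of the 10 closest measured genes were also at least 2-fold lower, LINC00973 at -5.83, ST3GAL6 and TOMM70, while CPOX was higher. Near COL6A3, 4 of the 10 closest were lower, MLPH, RAB17, ACKR3 and GBX2. Of all genes 6.72% were at least 2-fold lower, and the share of the neighbours in either difference was not tested. COL13A1, a collagen that spans the cell membrane, was at 7.88 in PC3CR and 9.26 in PC3, a difference of -1.38 or 2.60-fold lower. Its other probe sets differed by -0.51 and -0.57.

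Type VI collagen forms beaded filaments from chains of COL6A1, COL6A2 and COL6A3, and all 3 had negative differences. COL6A1 was at 9.66 in PC3CR and 10.26 in PC3, a difference of -0.60, and 7 of its 8 probe sets were below 0. COL6A2 was at 6.76 in PC3CR and 7.37 in PC3, a difference of -0.61, and its second probe set differed by -1.42. COL6A1 and COL6A2 thus lay within 2-fold and differed from each other by 0.01, whereas COL6A3 was lower by 2.16 more than COL6A1. COL16A1, a fibril-associated collagen, was at 4.74 in PC3CR and 5.54 in PC3. COL7A1, which forms the anchoring fibrils of skin, was at 5.66 in PC3CR and 5.76 in PC3, and COL9A2 at 4.48 in PC3CR and 4.61 in PC3. COL12A1, which coats type I fibrils, was the exception, at 5.82 in PC3CR and 5.00 in PC3, a difference of 0.83, while its 4 dimmer probe sets lay between -0.41 and 0.33.

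Elastic fibre genes held the largest difference of all members, that of FBN2. FBN2, fibrillin 2 of the microfibrils laid down in development, was at 2.13 in PC3CR and 8.90 in PC3, a difference of -6.77. It ranked 5 from the lowest among 19775 genes. Its second probe set was at 2.51 in PC3CR and 6.30 in PC3, a difference of -3.79, and the last was dim on both arrays. PC3CR lay near the floor for both, so the linear ratio of 109-fold is not precise. None of the 10 closest measured genes of FBN2 was past 2-fold, and their median difference was 0.02. The FBN2 start region is printed because this gene had the most negative difference of the members. It lies at chr5:128538196-128538495 on the minus strand of GRCh38.p14 and holds 1 CCAAT box and 4 GC boxes, in capitals as before.
FBN2: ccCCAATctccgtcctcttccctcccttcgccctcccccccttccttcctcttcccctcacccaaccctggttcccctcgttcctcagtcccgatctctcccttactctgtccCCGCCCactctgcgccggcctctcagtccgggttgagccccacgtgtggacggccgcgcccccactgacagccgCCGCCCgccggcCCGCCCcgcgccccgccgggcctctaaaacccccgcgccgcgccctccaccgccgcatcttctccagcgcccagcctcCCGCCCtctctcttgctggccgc

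FBN1, fibrillin 1 of adult microfibrils, went the opposite way. It was at 5.69 in PC3CR and 4.56 in PC3, a difference of 1.13 or 2.19-fold, and differed from FBN2 by 7.90. Its other 2 probe sets, dim on both arrays, differed by 0.10 and 0.11. Of the 10 closest measured genes, 5 were at least 2-fold higher, against 9.84% of all genes. These were MYEF2, DUT, CEP152, EID1 and SECISBP2L, and the median of the 10 was 0.99. The part of this neighbourhood in the FBN1 difference was not tested.

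Of the fibulins, 3 were members, and each was past 2-fold. EFEMP1, which encodes fibulin 3, was at 11.88 in PC3CR and 9.69 in PC3, a difference of 2.19 or 4.57-fold, and its other probe sets differed by 2.02 and 1.28. FBLN5, a fibulin needed to assemble elastin, was at 7.26 in PC3CR and 5.09 in PC3, a difference of 2.17 or 4.49-fold, on its only probe set. FBLN1, fibulin 1, was at 10.43 in PC3CR and 8.40 in PC3, a difference of 2.02 or 4.06-fold. Its 3 bright probe sets all passed 2-fold, and the dim ones differed by 0.19 and -0.03. EFEMP1 and FBLN1 were thus higher on every bright probe set. Of the fibulins outside the members, FBLN2 differed by -0.76, EFEMP2 by 0.15 and FBLN7 by 0.98, all within 2-fold.

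Elastin itself and the latent TGF-beta binding proteins did not share this difference. ELN was at 4.71 in PC3CR and 5.16 in PC3, below the median of genes on both arrays. LTBP1 was at 6.33 in PC3CR and 6.34 in PC3, and LTBP2 at 7.18 in PC3CR and 7.21 in PC3. Their second probe sets differed by 0.34 and 0.71.

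**Figure D4:**
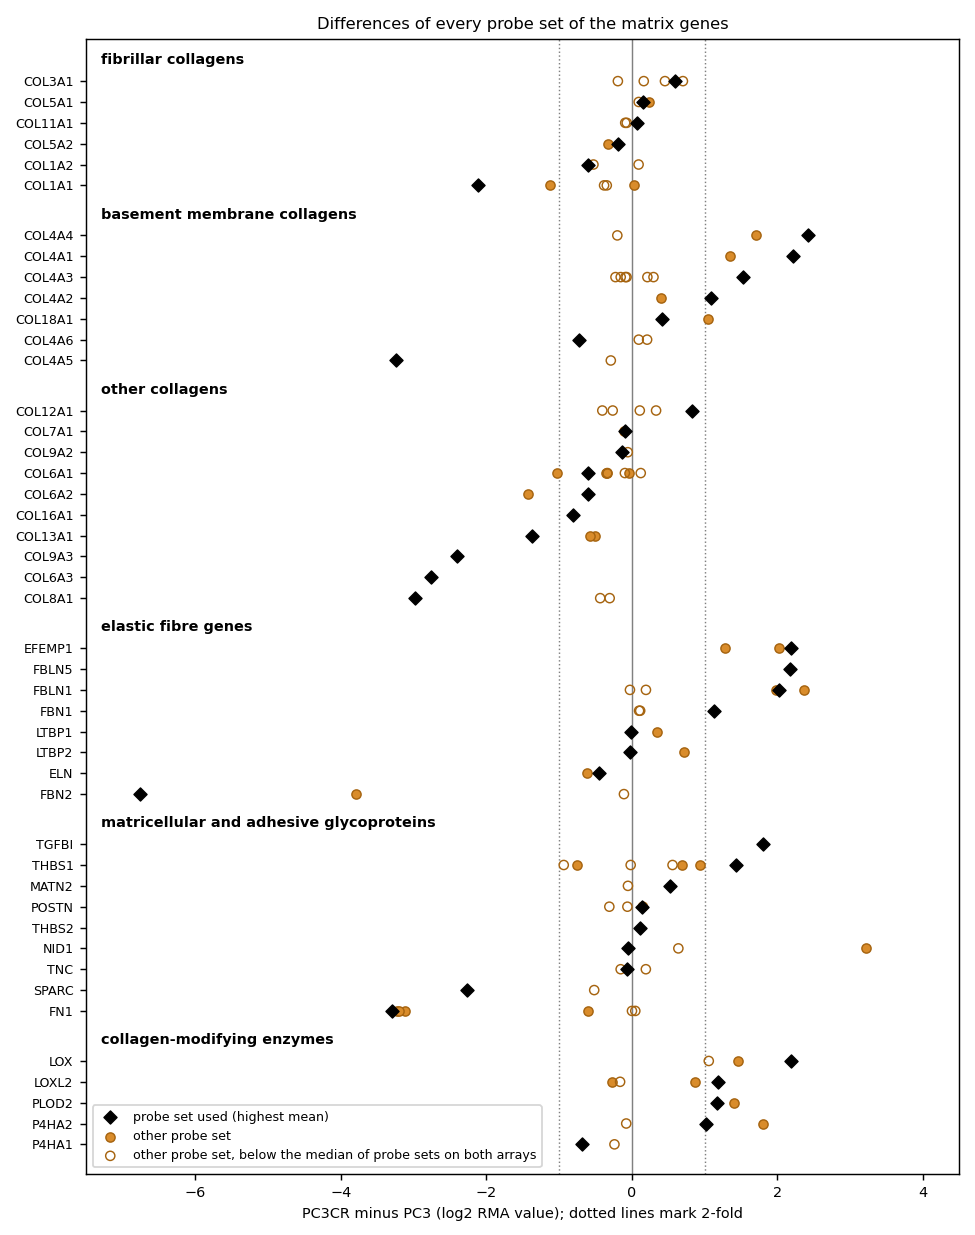
PC3CR minus PC3 (log2 units, horizontal axis) of the 135 probe sets of the 45 matrix genes, grouped by role. Black diamonds are the probe sets used, filled orange circles the others, and open circles others below the median of probe sets on both arrays. Open circles gather near 0, EFEMP1 and FBLN1 have several probe sets beyond 2-fold, and an unused probe set of NID1 lies at 3.22.

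Among the glycoproteins, FN1 and SPARC were lower in PC3CR and THBS1 and TGFBI were higher. FN1, fibronectin, which links cells to collagen through integrins, was at 7.78 in PC3CR and 11.08 in PC3, a difference of -3.30 or 9.87-fold lower. Of its other probe sets 3 were as bright and differed by between -3.23 and -3.12, and 1 differed by -0.60. The remaining 2, at 2.81 and 2.51 in PC3CR and 2.77 and 2.51 in PC3, were at the floor. FN1 was therefore lower on all 5 of its bright probe sets and kept a value above the median of genes in PC3CR. SPARC, a collagen-binding matricellular protein, was at 3.35 in PC3CR and 5.61 in PC3, a difference of -2.26 or 4.81-fold lower. SPARC was below the median of genes on both arrays and below the lower quartile in PC3CR, so its fold is approximate. Its second probe set differed by -0.52.

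TGFBI, a secreted protein that binds collagen and integrins, was at 9.64 in PC3CR and 7.84 in PC3, a difference of 1.80 or 3.48-fold, on its only probe set. THBS1, thrombospondin 1, an activator of latent TGF-beta, was at 10.04 in PC3CR and 8.60 in PC3, a difference of 1.43 or 2.70-fold. Its next brightest probe sets differed by 0.93 and 0.69, short of 2-fold, and the other 4 lay between -0.94 and 0.56. THBS2, its paralogue, was at 4.13 in PC3CR and 4.02 in PC3, near the lower quartile on both arrays. MATN2, a filament-forming adaptor, was at 7.75 in PC3CR and 7.23 in PC3, and TNC, tenascin C, at 7.30 in PC3CR and 7.36 in PC3. POSTN, periostin, was at 3.28 in PC3CR and 3.14 in PC3, below the lower quartile on both arrays.

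NID1, nidogen 1, which ties laminin to type IV collagen, depended on the probe set. The probe set used, the brightest on average, was at 4.70 in PC3CR and 4.75 in PC3. Another was at 5.75 in PC3CR and 2.53 in PC3, a difference of 3.22, and the last differed by 0.64. As the mean of the 3 NID1 probe sets, the difference was 1.27. Only 1 of the 3 probe sets was past 2-fold.

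The collagen-modifying enzymes were higher in PC3CR except for P4HA1. LOX, the lysyl oxidase that crosslinks collagen and elastin, was at 6.03 in PC3CR and 3.84 in PC3, a difference of 2.19 or 4.56-fold, and its other probe sets differed by 1.46 and 1.06. LOXL2, a relative of LOX that acts on type IV collagen, was at 8.96 in PC3CR and 7.78 in PC3, a difference of 1.18 or 2.27-fold. The other probe sets of LOXL2 lay between -0.27 and 0.87. PLOD2, the lysyl hydroxylase that prepares collagen ends for crosslinks, was at 12.00 in PC3CR and 10.84 in PC3, a difference of 1.17 or 2.24-fold, with 1.41 on its second probe set. LOX and PLOD2 were thus past 2-fold on every probe set. All 3 LOX probe sets lay below the lower quartile of genes in PC3, so the size of the LOX difference is approximate.

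Prolyl 4-hydroxylase stabilises the helix, and of its alpha subunits only P4HA2 passed 2-fold. P4HA2 was at 10.45 in PC3CR and 9.43 in PC3, a difference of 1.02 or 2.03-fold, at the edge of the 2-fold rule. A second bright probe set of P4HA2 differed by 1.80. P4HA1 was at 10.59 in PC3CR and 11.27 in PC3, a difference of -0.68. P4HA3, which was not a member, was at 6.57 in PC3CR and 6.21 in PC3.

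Probe sets of one gene did not always agree. Of the 23 members past 2-fold, 19 had several probe sets, and in 11 of these every probe set had the same sign. In 16 of the 19 the probe sets at or above the median of probe sets on at least 1 array had the same sign. The exceptions were COL1A1, THBS1 and LOXL2. COL4A3, COL4A5, COL8A1, FBN1 and SPARC had only 1 such probe set, the one used, so their agreement was fixed in advance. In 10 of the 19 at least 2 such probe sets were past 2-fold the same way. Of all 135 member probe sets 26 passed 2-fold upward and 16 downward, against 8.94% and 5.89% of all probe sets with 1 symbol. Of the 9 lower members 6 were below the lower quartile in PC3CR, and of the 14 higher members only LOX was below it in PC3. The lower members thus mostly fell below the lower quartile in PC3CR, while the higher members mostly lay above it on both arrays. Without a detection call, a value above the lower quartile does not show that a gene was detected.

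Related genes beyond the members were described from 5 lists. Of their 92 measured genes, 11 passed 2-fold upward, or 12.0% against 9.84% of all genes, and 3 downward, or 3.26% against 6.72% of all genes, with a median of 0.12. Of the 92, 52 were below the median of genes on both arrays, as were 17 of the 45 members. Among 20 remaining collagen chains 2 were higher and 0 lower. These were COL28A1 at 1.51 and COL8A2, the partner chain of COL8A1, at 1.30, and 18 of the 20 were below the median of genes on both arrays. Of 30 genes of collagen folding, processing and export, 4 were higher and 1 was lower, with a median of 0.28. PCOLCE2, which enhances procollagen cleavage, differed by 1.89, P3H4, an endoplasmic reticulum protein of the hydroxylase complex, by 1.70, P3H2, a prolyl 3-hydroxylase of type IV collagen, by 1.24, and LOXL1, a lysyl oxidase of elastic fibres, by -1.78. LOXL4, another lysyl oxidase, differed by 1.11. Of 14 other elastic fibre genes only LTBP3 was past 2-fold, at -1.12. Of 20 other matricellular and adhesive genes 3 were higher and 0 lower. NID2, nidogen 2, was at 8.86 in PC3CR and 5.66 in PC3, a difference of 3.20. CCN5, a matricellular protein, differed by 1.76, and MATN3, a matrilin of cartilage, by 1.69. Of the genes named from these lists, COL28A1, LOXL4 and MATN3 lay below the median of genes on both arrays. COL28A1 and MATN3 were also below the lower quartile in PC3. P3H2, LOXL4 and LTBP3 each had a probe set of the opposite sign, at -0.14, -0.27 and 0.22.

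**Figure D5:**
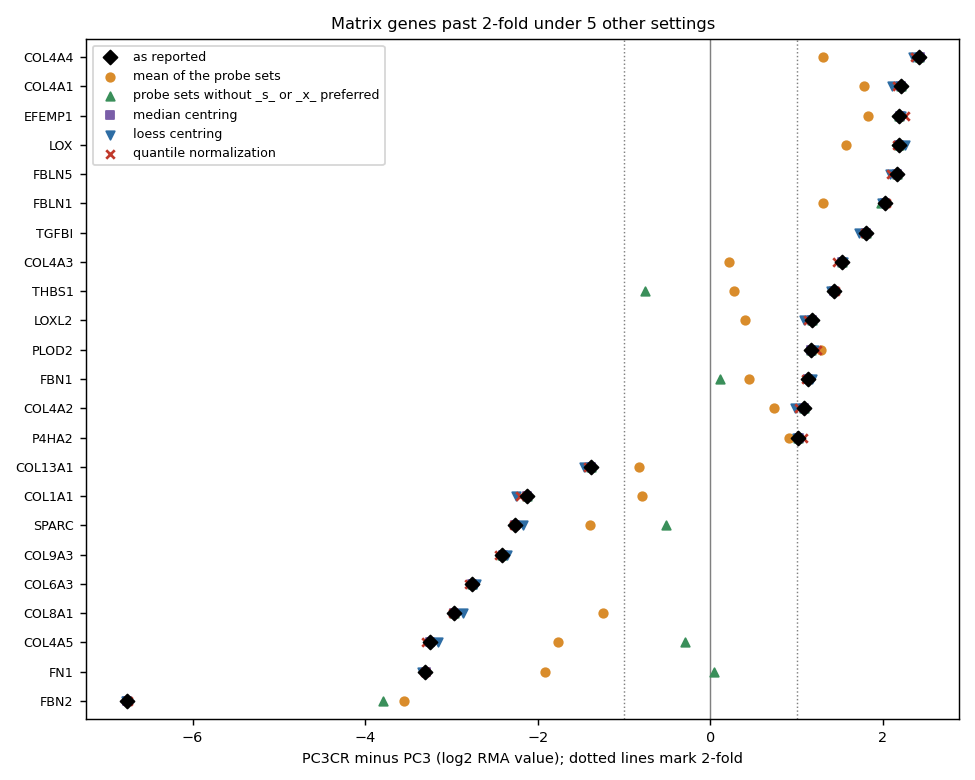
PC3CR minus PC3 (log2 units, horizontal axis) of the 23 matrix genes past 2-fold, as reported (black diamonds) and under 5 other choices of probe set or scaling. The 3 scalings lie on the reported values within 0.13, while the mean of the probe sets and the preference for probe sets without _s_ or _x_ move single genes such as THBS1, FN1 and COL4A5.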

How the data were processed

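Total RNA of PC3CR and PC3 cells was hybridised to Affymetrix arrays, 1 per cell line. The authors normalized the scans with the robust multichip average and deposited 1 log2 value per probe set. The submitters' processing notes name Affymetrix Expression Console 1.4 and Transcriptome Analysis Console 3.1. The identifiers belong to the U133 Plus design, so the values were read here as those of its probe sets. The methods give a Gene ST array, and the reason for this mismatch is not known. RMA makes the distributions of both arrays nearly the same, so a difference in total RNA cannot be seen. Of 54613 probe sets, 41091 had 1 symbol in the platform annotation. For 41037 of these the RefSeq name (GRCh38.p14) with the same gene identifier was used, whether or not it differed from the annotated symbol.

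The methods' 2-fold rule was used, with no floor on signal and no p-value, since each line has 1 array, and this number limits the precision. Members past 2-fold were named with both values, other members by values or ranges, and in related lists up to 4 genes furthest from 0. LOXL4, a further gene past 2-fold, was added after its value was seen. Members and lists were chosen with earlier results of these data known. Neighbours were the 5 measured genes on each side in RefSeq order. The alternatives were 2 other fold thresholds, a floor on signal, 2 other choices of probe set and 3 scalings. Scripts were tested on simulated data. The work ran in Python 3.11.15 with pandas 2.3.3, numpy 2.4.6, matplotlib 3.10.9 and statsmodels 0.14.6.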

Additional observations from a re-analysis of the deposited data

How the results depend on the processing

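Values count as moved past 0.283 log2 units, the median SD between probe sets of one gene, and counts past a factor of 1.5. Median centring, loess centring (span 0.4) and quantile normalization moved no count or median, and loess centring took COL4A2 within 2-fold. At 1.5-fold 15 members were lower, against 9 at 2-fold, while the share of all genes was 13.5% against 6.72%. At 4-fold 6 members were higher, against 14 at 2-fold, while the share of all genes was 1.76% against 9.84%. Over the 28 members at or above the median of genes on at least 1 array, the medians were -1.15 for 2 fibrillar collagens, -1.38 for other collagens, 1.01 for elastic fibre genes and 0.52 for glycoproteins. When probe sets were averaged per gene, 9 members were at least 2-fold higher, against 6.92% of all genes in this setting. The median of basement membrane collagens was then 0.73. COL1A1, COL4A2, COL4A3, COL13A1, FBN1, THBS1, LOXL2 and P4HA2 then lay within 2-fold, at -0.79, 0.74, 0.21, -0.82, 0.45, 0.27, 0.40 and 0.91, while NID1 and COL6A2 passed it. When probe sets without _s_ or _x_ in their identifier were preferred, the medians were -1.09 for other collagens and 0.052 for elastic fibre genes. FN1 then differed by 0.046 and THBS1 by -0.76, both in the other direction. The FN1 probe set used there was at 2.81 in PC3CR and 2.77 in PC3. For THBS1 it was at 4.16 in PC3CR and 4.91 in PC3. The brightest THBS1 probe set, at 10.04 in PC3CR and 8.60 in PC3, carries _s_ and was passed over. COL4A5, SPARC and FBN1 came within 2-fold, at -0.29, -0.52 and 0.11. No paired analysis was possible because each cell line has 1 array.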

Other observations

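Receptors that bind collagen were not members of the list. Of 8 measured, 2 passed 2-fold upward in PC3CR and 1 downward, against 9.84% and 6.72% of all genes. Of the 8, 6 were below the median of genes on both arrays. ITGA2, the alpha chain of an integrin that binds collagen on epithelial cells, was at 9.47 in PC3CR and 7.70 in PC3, a difference of 1.77. ITGA1, the alpha chain of another collagen integrin, was at 5.75 in PC3CR and 4.40 in PC3, a difference of 1.35. DDR2, a receptor kinase for fibrillar collagen, was at 4.34 in PC3CR and 5.38 in PC3, a difference of -1.04. Each of these rests on 1 probe set past 2-fold, of 2 for ITGA2, 3 for ITGA1 and 4 for DDR2. The second ITGA2 probe set differed by 0.58, the lowest of ITGA1 by 0.08 and the highest of DDR2 by 0.09.

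Matrix genes past 2-fold lay on many chromosomes. Chromosome 2 held 8 measured members, of which 3 were higher and 2 lower. Chromosome 5 held 5, of which LOX, TGFBI and P4HA2 were higher and FBN2 and SPARC lower. Over all genes of all chromosomes 9.84% were at least 2-fold higher and 6.72% lower, and shares per chromosome were not counted. For 21 of the 23 members past 2-fold, the median difference of the 10 closest measured genes lay within 0.5 of 0. The exceptions were FBN1, at 0.99, and PLOD2, at 0.65 with 3 neighbours at least 2-fold higher, PLSCR4, ZIC1 and CHST2. EFEMP1, with a neighbour median of 0.04, also had 3 neighbours at least 2-fold higher, CCDC88A, VRK2 and FANCL. A median near 0 thus does not mean that no neighbour was past 2-fold, and the part of the neighbours was not tested. LOXL2 lay within 5 measured genes of STC1, the secreted glycoprotein stanniocalcin, which was at 10.99 in PC3CR and 6.55 in PC3.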
